A study of Mus musculus with 12 samples.

Results

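The mitochondrial genome of the mouse is a small circle with 37 annotated genes, and all 37 were rows of the deposited gene table, of 54532 rows in all. They were chosen by name, as every gene whose symbol starts with mt-, and comprise 13 mRNAs, 2 rRNAs and 22 tRNAs. Their RNA was measured in MEFs, fibroblasts grown from mouse embryos, in 4 groups of 3 libraries. The groups were CHIP-KO cells heated for 1 hour at 43 °C, CHIP-KO cells with no heat, wild-type (WT) cells heated in the same way and WT cells with no heat. CHIP is the product of Stub1, a ubiquitin ligase that binds chaperones, and every library was prepared by poly(A) capture. The labels give no sex, embryo age, passage or clone. They also leave unsaid whether replicates are separate cultures, so each p-value covers the spread between the libraries at hand, which may be technical.

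Both strands of the circle are transcribed as long precursors by the mitochondrial RNA polymerase, Polrmt. The tRNAs stand between the mRNAs and rRNAs like punctuation, and enzymes that cut at the tRNA ends release most of the RNAs. The mRNAs encode subunits of respiratory complexes I, III and IV and of ATP synthase, and the 2 rRNAs build the small and the large subunit of the mitochondrial ribosome. Most mitochondrial mRNAs and the rRNAs carry poly(A) tails added after cutting, and tRNAs in general do not. A poly(A) capture library therefore reads amount and tailing together, and the 2 cannot be told apart here. In bulk RNA, fewer mitochondrial genomes, fewer cells and less RNA per cell cannot be told apart either.

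The genes lie end to end, which the junction around mt-Tl1 shows (a leucine tRNA, in capitals, between the last bases of mt-Rnr2 and the first of mt-Nd1, chrM:2656-2770, plus strand). The results turn on it. With all 12 libraries, the RNA on one side of this tRNA changed with heat and that on the other did not pass the test.
mt-Rnr2 / mt-Tl1 / mt-Nd1: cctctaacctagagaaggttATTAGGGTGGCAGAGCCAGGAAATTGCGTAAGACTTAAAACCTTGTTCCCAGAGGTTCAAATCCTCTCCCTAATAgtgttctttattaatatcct
There is no base between mt-Rnr2 (1094 to 2675), mt-Tl1 (2676 to 2750) and mt-Nd1 (2751 to 3707). Some neighbours also overlap, the longest stretch being the 43 bases that mt-Atp8 and mt-Atp6 share (in capitals, within chrM:7907-7989, plus strand), so reads there belong to both genes.
mt-Atp8 / mt-Atp6: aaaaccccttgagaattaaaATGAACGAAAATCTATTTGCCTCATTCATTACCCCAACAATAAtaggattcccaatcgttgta
Sequences and positions in this text are those of the GENCODE M21 transcripts on GRCm38, in which all 37 genes had the positions given in the deposited table.

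Parts of the mitochondrial genome also exist in the nucleus. The stretch from chrM:6390 to 11042 (4653 bases) lined up with 7 annotated pseudogenes on chromosome 1 (24611535 to 24616188, minus strand), in the same order, whose alignments summed to 4140 bases. The gaps between these gene models, where mt-Atp8 and the tRNAs lie, were not searched, so no copy of those genes could be added below. The copy holds the last part of mt-Co1, all of mt-Co2, mt-Atp6 and mt-Co3, mt-Nd3, mt-Nd4l and the first part of mt-Nd4. The first 60 bases of mt-Nd3 (chrM:9459-9518, plus strand) and of its copy Gm28438 (chr1:24613060-24613119, minus strand) show how near the match is, with capitals at the base that differs.
mt-Nd3: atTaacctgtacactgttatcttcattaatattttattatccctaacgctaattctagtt
Gm28438: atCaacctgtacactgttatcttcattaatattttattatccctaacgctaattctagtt
The difference, T3C counted from the first base of mt-Nd3, was the 1 mismatch in the 345 aligned bases of this pair. For mt-Co3 (chrM:8607-8666, plus strand) and Gm28437 (chr1:24613912-24613971, minus strand) 0 of the 60 first bases differed, so there is nothing to set in capitals.
mt-Co3: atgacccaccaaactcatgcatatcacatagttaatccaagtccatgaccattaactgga
Gm28437: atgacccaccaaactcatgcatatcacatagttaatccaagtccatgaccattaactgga
Of all windows of 150 bases, the length of a read, 99.4% of those in mt-Co2 and in mt-Atp6 were present without a mismatch in a nuclear transcript, as were 99.8% in mt-Co3, 97.0% in mt-Nd3 and 98.0% in mt-Nd4l. The share was 59.2% in mt-Nd4, 23.6% in mt-Co1 and 0% in the remaining mRNAs and both rRNAs. mt-Atp8 also gave 0%, but it lies in a gap between annotated copies, so its nuclear counterpart could not be searched. How reads with several matches were placed is not given in the sources used here.

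The levels followed this map. Levels are FPKM, which divide the fragments of a gene by its length and by a library total, so that genes can be compared. The 5 mRNAs wholly outside the stretch (mt-Nd1, mt-Nd2, mt-Nd5, mt-Nd6 and mt-Cytb) had 279 to 2239 FPKM over the 12 libraries, and the 2 that lie partly inside it (mt-Co1 and mt-Nd4) had 114 to 3789 FPKM. The 6 wholly inside (mt-Co2, mt-Atp8, mt-Atp6, mt-Co3, mt-Nd3 and mt-Nd4l) had 0.311 to 93.0 FPKM. Averaged over all libraries, the order was mt-Co1 at 2864 FPKM, mt-Cytb at 1586, mt-Nd1 at 1490, mt-Nd2 at 846, mt-Nd4 at 509, mt-Nd5 at 470, mt-Nd6 at 403, mt-Co2 at 42.1, mt-Atp6 at 17.1, mt-Co3 at 12.1, mt-Nd4l at 4.21, mt-Nd3 at 3.58 and mt-Atp8 at 1.32. Within this order neighbours had library ranges that overlapped, with 2 exceptions: all libraries of mt-Nd6 lay above all of mt-Co2, and all of mt-Co3 lay above all of mt-Nd4l. The tRNAs inside the stretch averaged under 1 FPKM in 5 of 5 cases, against 2 of 17 outside it. The part that reads shared with the nuclear copy play in these levels was not tested beyond the sums given below.

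**Figure D1:**
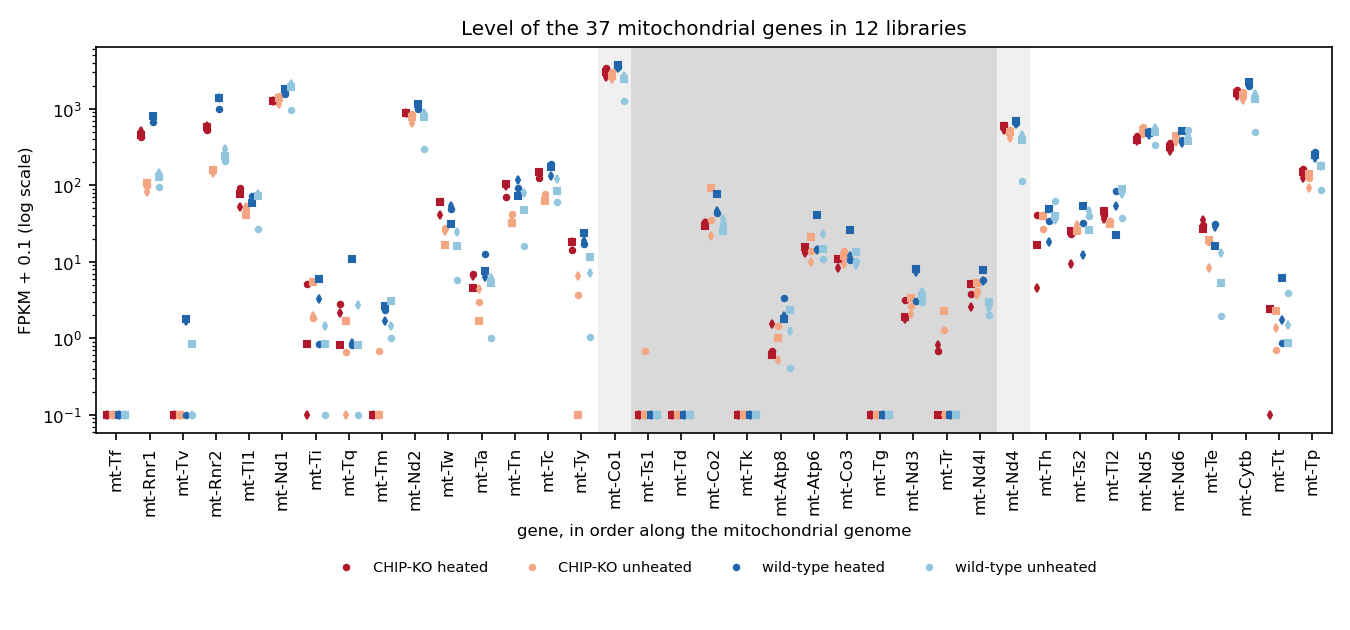
Level of each of the 37 genes (FPKM + 0.1, log scale) in gene order along the mitochondrial genome, with 1 point per library coloured by group (circle, square and diamond are replicates 1, 2 and 3). Dark grey marks the 11 genes wholly inside the stretch copied on chromosome 1 and light grey the 2 mRNAs partly inside it: the 6 dark grey mRNAs lie at 0.311 to 93.0 FPKM and the 5 unshaded ones at 279 to 2239 FPKM.

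The nuclear copies had reads of their own. Gm28438 was listed at 44.9 to 81.9 FPKM over the 12 libraries, whereas mt-Nd3, its near-identical source, was listed at 1.70 to 7.86 FPKM. Gm28661, the copy of mt-Co2, was listed at 18.8 to 66.7 FPKM beside 21.9 to 93.0 FPKM for mt-Co2. The copies of the partly covered genes were lower, Gm29216 at 3.42 to 25.3 FPKM and Gm28439 at 3.2 to 8.75 FPKM. The values of the 5 mRNAs inside the stretch that have an annotated copy therefore cannot be read apart from those of the copies, and below their results are given also with its fragments added where they passed the test or came to pass it. With their copies added, mt-Atp6 and mt-Co3 were not called in any of the 5 tests, with differences of -0.58 and -0.60 between heated genotypes.

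**Figure D2:**
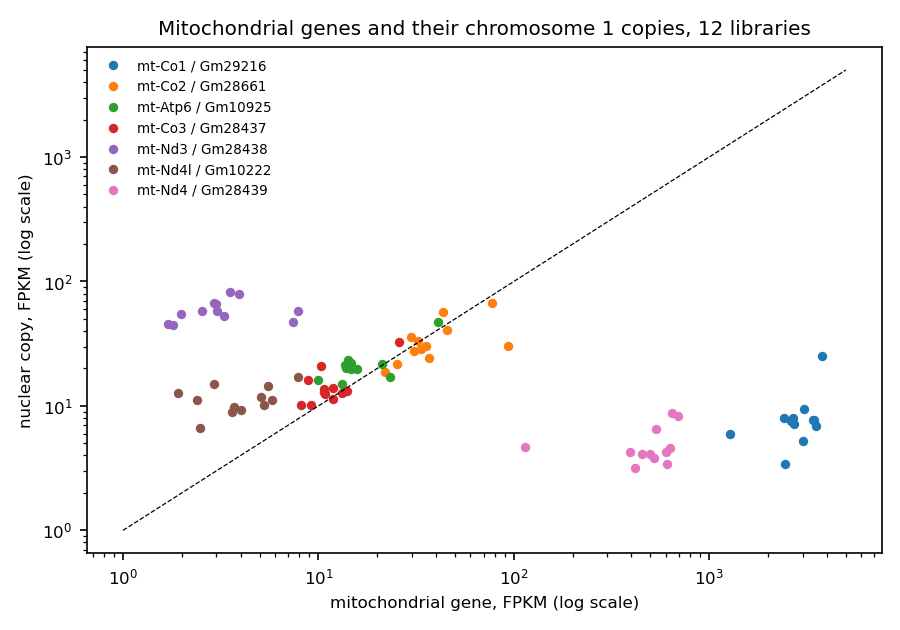
FPKM of 7 mitochondrial genes (horizontal, log scale) against FPKM of their chromosome 1 copies (vertical, log scale), 1 point per library. The dashed line marks equal values: mt-Nd3 and mt-Nd4l lie above it in all 12 libraries, with Gm28438 at 44.9 to 81.9 FPKM, while mt-Co1 and mt-Nd4 lie below it.

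Facts of the whole series were checked first. Stub1 was listed at 0.996 to 1.17 FPKM in heated CHIP-KO libraries and 53.8 to 57.9 in heated WT libraries, and in the unheated libraries at 0.722 to 1.17 (CHIP-KO) and 57.5 to 64.1 (WT), so each library matched its genotype label. The summed level of 10 fibroblast markers was 3264 to 3462 FPKM in heated CHIP-KO, 2915 to 3079 in unheated CHIP-KO, 1845 to 2197 in heated WT and 1436 to 1858 in unheated WT, and 4 endothelial markers summed to at most 0.753 FPKM. The 8 mesothelial or epithelial markers summed to 52.0 to 53.2 FPKM in heated CHIP-KO, 37.8 to 42.4 in unheated CHIP-KO, 9.75 to 10.9 in heated WT and 42.6 to 47.2 in unheated WT, with Wt1 at 0 throughout. The 4 macrophage or leukocyte markers summed to 8.47 to 10.7 FPKM in heated CHIP-KO, 3.91 to 4.33 in unheated CHIP-KO, 12.3 to 15.4 in heated WT and 1.86 to 2.98 in unheated WT, with Adgre1 at 0 throughout, so this sum was higher with heat in both genotypes. Only 1 of these 4 markers reached at least 1 FPKM in at least 3 libraries. The part of this sum in the results below was not tested. Recovered depth was 19953642 to 26954112 fragments in heated CHIP-KO, 22894580 to 26244726 in unheated CHIP-KO, 17103444 to 19294361 in heated WT and 15591924 to 20098901 in unheated WT. One library stood apart for the mitochondrial genes. Replicate 1 of unheated WT held 27.0% of the mean of the other 2 libraries of its group for mt-Nd4, 35.1% for mt-Cytb, 35.9% for mt-Nd2, 47.7% for mt-Nd1 and 49.8% for mt-Co1, but 70.8% for mt-Rnr1, 75.7% for mt-Rnr2 and 130% for mt-Nd6. It was also the shallowest library, at 15591924 fragments. Results are given also without it where that changed a call or moved a count by over 1.5 times.

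The change with heat asks what 1 hour at 43 °C did within each genotype. The 2 ribosomal RNAs rose several-fold in both genotypes. mt-Rnr1, the 12S rRNA of the small ribosomal subunit (70 to 1024, plus strand), had 423, 455 and 513 FPKM in heated CHIP-KO cells, against 98.2, 107 and 81.3 FPKM in unheated CHIP-KO cells. In WT cells it had 669, 810 and 772 FPKM with heat and 96.2, 128 and 144 FPKM without. No heated library of either genotype reached down to the unheated ones. mt-Rnr2, the 16S rRNA of the large subunit, had 536, 581 and 598 FPKM in heated CHIP-KO cells, against 165, 160 and 147 FPKM in unheated CHIP-KO cells. In WT cells it had 991, 1379 and 1378 FPKM with heat and 205, 245 and 297 FPKM without, again with no overlap. How many of all genes separated in this way with heat was not counted.

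On the log2(FPKM + 1) scale, heat changed mt-Rnr1 by 2.27 ± 0.15 (SE) in CHIP-KO cells, which is 4.83-fold (adjusted p = 5.49e-06), and by 2.62 ± 0.15 in WT cells, which is 6.14-fold (adjusted p = 1.60e-07). For mt-Rnr2 the changes were 1.86 ± 0.15 in CHIP-KO cells, which is 3.62-fold (adjusted p = 2.14e-05), and 2.32 ± 0.15 in WT cells, which is 5.0-fold (adjusted p = 3.58e-07). These p-values come from limma, adjusted by Benjamini-Hochberg across the 13023 genes tested, and a gene is called where the adjusted p is under 0.05. Over all genes tested, 8.65% were called higher with heat in CHIP-KO cells and 28.1% in WT cells, and the median change of all genes was -0.0018 in CHIP-KO cells and -0.016 in WT cells. Both rRNAs were called in each genotype under each of 25 other settings, with changes of 1.93 to 2.36 (mt-Rnr1) and 1.52 to 1.90 (mt-Rnr2) in CHIP-KO cells. In WT cells the ranges were 2.38 to 2.74 and 2.08 to 2.48, and without replicate 1 of unheated WT the changes were 2.46 and 2.19.

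The rise in rRNA was also seen relative to the mRNAs of the same genome, which does not depend on how libraries were scaled to each other. The summed FPKM of the 2 rRNAs was 10.9%, 12.6% and 14.8% of the summed FPKM of the 13 mRNAs in heated CHIP-KO libraries, against 3.04%, 3.36% and 3.33% in unheated CHIP-KO libraries. In WT libraries it was 17.1%, 20.2% and 22.1% with heat and 7.37%, 4.78% and 5.02% without. The 4 groups did not overlap in this measure. The ratio of mt-Rnr2 to mt-Rnr1 lay between 1.17 and 1.28 in heated CHIP-KO libraries and between 1.49 and 1.80 in unheated ones, and between 1.48 and 1.78 in heated WT libraries and 1.92 and 2.13 in unheated ones. Heated libraries thus had the lower ratio in each genotype. These are values with no test, since 3 libraries against 3 cannot give an exact two-sided permutation p below 0.1.

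**Figure D3:**
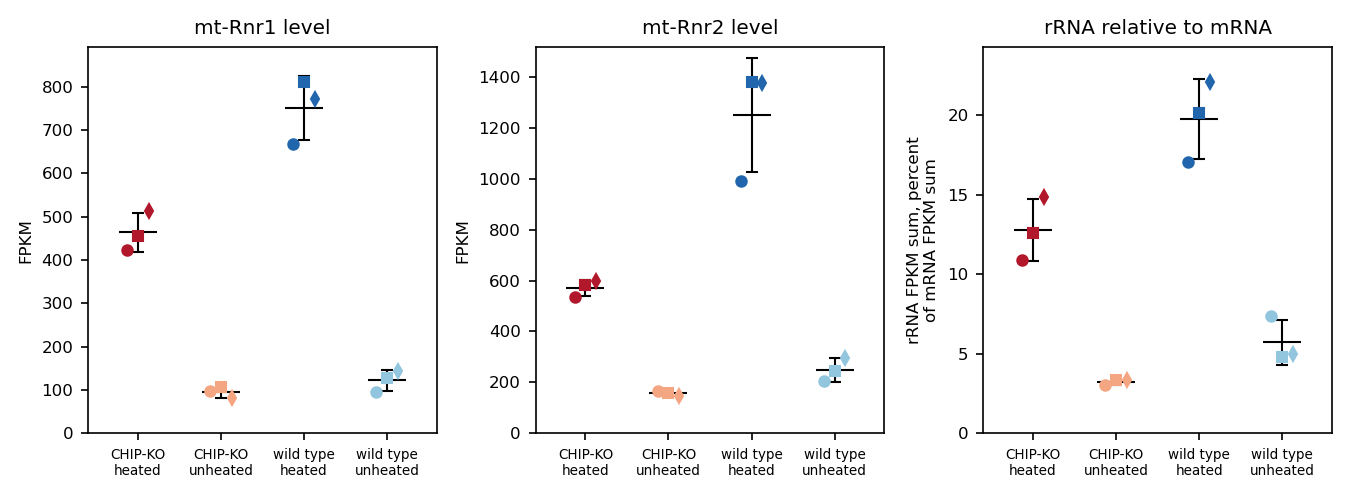
mt-Rnr1 and mt-Rnr2 (FPKM) and the summed rRNA FPKM as a percent of the summed mRNA FPKM, by group, with 1 point per library, the mean as a horizontal line and the SD as error bars (n = 3). Heated libraries lie above unheated ones in each genotype, and heated CHIP-KO libraries, at 423 to 513 FPKM for mt-Rnr1, lie below heated WT libraries, at 669 to 810 FPKM.

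In CHIP-KO cells 0 of 13 mRNAs were called after heat, beside 20.0% of all genes called in either direction, and 2 of 13 had an unadjusted p under 0.05. Their changes ran from -0.42 to 0.28 with a median of -0.06, 4 above 0 and 9 below. The count was 2 (mt-Nd5 and mt-Nd6, both lower) by limma's voom on recovered fragments and with libraries scaled to an equal FPKM sum or to equal quantiles. It was also 2 with library weights and with CHIP-KO libraries alone. Of all 13023 genes, 3007 were called lower by voom, 8158 with the equal sum and 1813 with quantiles. With library weights 3275 were called lower, and with CHIP-KO libraries alone 2213. mt-Nd5 and mt-Nd6 gave the 2 changes that came nearest to the threshold. mt-Nd5, the longest complex I subunit gene of the genome, had 438, 396 and 378 FPKM in heated CHIP-KO cells, against 577, 524 and 471 FPKM in unheated CHIP-KO cells, a difference of -0.37 ± 0.16 (adjusted p = 0.12). Without replicate 1 of unheated WT, whose spread enters the fit, mt-Nd5 was called lower (adjusted p = 0.0111), and the count was 1. Of 12963 genes, 1755 were called lower without that library. mt-Nd6, the complex I subunit gene on the other strand (13552 to 14070, minus strand), had 355, 316 and 279 FPKM with heat, against 461, 436 and 374 FPKM without, a difference of -0.42 ± 0.16 (adjusted p = 0.0828). Neither gene's heated libraries overlapped its unheated ones, a trait that was not counted over all genes. Strand use in counting is not given in the sources used here, so reads of mt-Nd6 and of antisense RNA from the opposite strand cannot be told apart.

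In WT cells 5 of 13 mRNAs were called after heat, all higher, beside 28.1% of all genes called higher and 58.7% called in either direction. They were mt-Co1, mt-Cytb, mt-Nd2, mt-Nd4 and mt-Nd4l, and the median change of the 13 was 0.62. mt-Co1, which encodes the catalytic subunit of complex IV, had 3512, 3789 and 3434 FPKM in heated WT cells, against 1278, 2424 and 2710 FPKM in unheated WT cells, a change of 0.81 ± 0.23 (adjusted p = 0.0103). mt-Cytb, cytochrome b of complex III, had 2012, 2239 and 2065 FPKM with heat, against 503, 1325 and 1540 FPKM without, a change of 1.06 ± 0.32 (adjusted p = 0.0151). For these and for the complex I subunits mt-Nd2 (0.87 ± 0.31, adjusted p = 0.034) and mt-Nd4 (1.26 ± 0.39, adjusted p = 0.0164), heated and unheated libraries did not overlap. The share of all genes that separated in this way in WT cells was not counted. Without replicate 1 of unheated WT the 4 changes shrank to 0.48 for mt-Co1, 0.56 for mt-Cytb, 0.38 for mt-Nd2 and 0.63 for mt-Nd4, and each was still called. mt-Nd1 turned round without that library, to -0.28 (adjusted p = 0.0386), against 0.07 ± 0.24 (adjusted p = 0.809) with it. mt-Nd1 had 1584, 1825 and 1613 FPKM in heated WT cells, against 970, 1952 and 2117 FPKM in unheated WT cells, so the groups overlapped.

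The fifth, mt-Nd4l, a small complex I subunit whose gene overlaps that of mt-Nd4 by 7 bases, had 5.76, 7.83 and 5.52 FPKM in heated WT cells, against 1.92, 2.93 and 2.38 FPKM in unheated WT cells. Its change of 1.11 ± 0.20 (adjusted p = 0.000662) rested on 30 to 40 fragments per heated WT library and 9 to 17 per unheated one. With the fragments of its nuclear copy Gm10222 added it was 0.39 (adjusted p = 0.108), and it was no longer called. The count of 5 also fell to 2 with no filter on low values or with the WT groups alone. It fell to 3 where libraries were scaled to an equal sum of FPKM or by quantiles. Of all genes, 5379 of 29109 were called higher with no filter and 3078 of 13023 with the WT groups alone. With the equal sum 2387 of 13023 were called higher, and with quantiles 3206. Under the equal-sum scaling the median change of all genes was -0.21, and mt-Co1 stood at 0.58 and mt-Nd2 at 0.63, neither of them called.

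**Figure D4:**
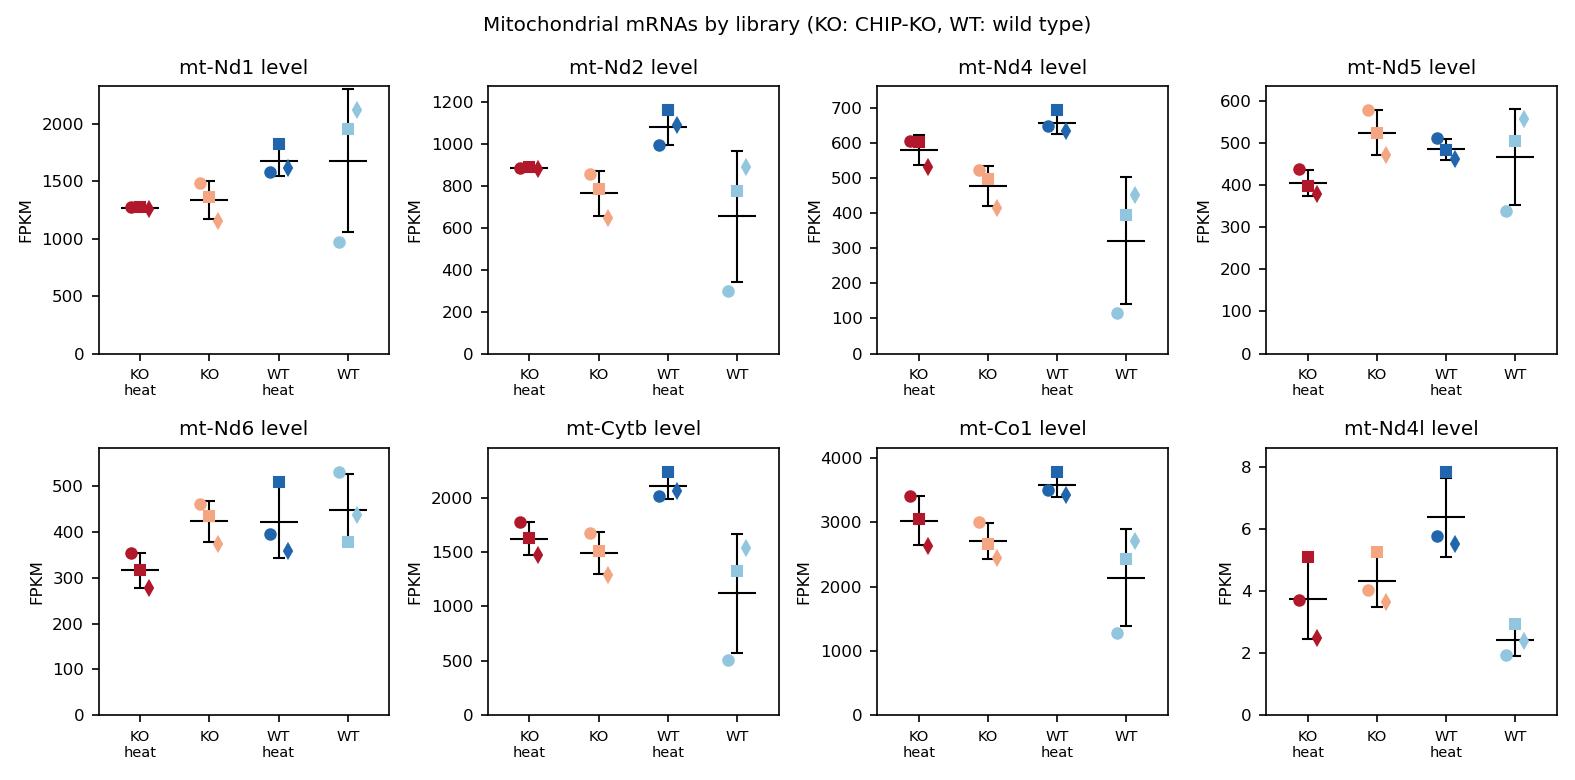
FPKM of 8 mitochondrial mRNAs by group, with 1 point per library (circle, square and diamond are replicates 1, 2 and 3), the mean as a horizontal line and the SD as error bars (n = 3). Replicate 1 of unheated WT lies far below replicates 2 and 3 for mt-Nd4 (114 against 395 and 453 FPKM) and mt-Cytb, and not for mt-Nd6.

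Each mRNA can also be given as a share of the summed FPKM of the 13, which removes the scaling between libraries and the overall level. By this measure replicate 1 of unheated WT did not stand apart for every gene. mt-Nd1 took 16.3% to 16.8% in heated WT libraries, against 23.7% to 25.0% in unheated WT libraries, replicate 1 included. In heated CHIP-KO libraries it took 14.5% to 16.8%, against 16.9% to 17.2% in unheated CHIP-KO libraries. mt-Nd5 took 4.82% to 5.06% in heated CHIP-KO libraries, against 6.61% to 6.89% in unheated ones, and 4.44% to 5.25% in heated WT libraries, against 6.32% to 8.27% in unheated ones. mt-Nd6 likewise took 3.72% to 4.03% in heated CHIP-KO libraries, against 5.32% to 5.51% in unheated ones. In heated WT libraries it took 3.69% to 4.70%, against 13%, 4.84% and 4.98% in replicates 1, 2 and 3 of unheated WT. The 8.27% of mt-Nd5 was replicate 1 of unheated WT too. That library also stood apart for mt-Nd4, at 2.80% against 5.06% and 5.16%, and for mt-Cytb, at 12.3% against 17.0% and 17.5%. So mt-Nd5 and mt-Nd6, which stand next to each other on opposite strands, took the lower share with heat in both genotypes. mt-Co1 took 34.9% to 36.1% in heated WT libraries and 30.9% to 31.2% in unheated WT libraries, while its shares in CHIP-KO libraries, 35.1% to 38.7% with heat and 33.7% to 35.8% without, overlapped. Shares add up to a whole, so a lower share of one gene can come with a higher share of another.

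As a share of all fragments, the 13 mRNAs made up 0.917% to 1.07% of heated CHIP-KO libraries, 0.881% to 1.12% of unheated CHIP-KO libraries and 1.24% to 1.36% of heated WT libraries. In unheated WT libraries they made up 0.493%, 1.00% and 1.14%, the lowest being replicate 1. Heated WT libraries thus lay above all others, and the 2 CHIP-KO groups overlapped.

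The comparison of CHIP-KO with WT asks how the cells of each genotype differed at each temperature. As the labels give no sex, embryo age, passage or clone, the cells may differ in more than CHIP. Whether a difference came from the loss of CHIP was not tested. In heated cells both rRNAs were lower in CHIP-KO, beside 19.1% of all genes called lower and 42.4% called in either direction. mt-Rnr1 averaged 464 ± 45.4 FPKM in heated CHIP-KO cells and 751 ± 73.4 FPKM in heated WT cells (SD, n = 3 each), a difference of -0.69 ± 0.15 (SE, adjusted p = 0.00314). mt-Rnr2 averaged 572 ± 31.8 FPKM in heated CHIP-KO cells and 1250 ± 224 FPKM in heated WT cells, a difference of -1.11 ± 0.15 (adjusted p = 0.000112). Both were called under each of 25 other settings, with differences of -0.78 to -0.63 for mt-Rnr1 and -1.27 to -1.03 for mt-Rnr2.

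All 13 mRNAs had a negative difference in heated cells, with a median of -0.40, beside 0.013 over all genes, and for 10 of them each CHIP-KO library lay below each WT library, as for 22.7% of all genes tested. Only 2 of the 13 passed the test, both small complex I subunit genes inside the copied stretch. mt-Nd3 had 3.04, 1.79 and 1.70 FPKM in heated CHIP-KO cells, against 2.98, 7.86 and 7.39 FPKM in heated WT cells, a difference of -1.09 ± 0.28 (adjusted p = 0.00861). The groups overlapped, and with the fragments of Gm28438 added the difference was -0.28 (adjusted p = 0.0763). mt-Nd4l had 3.69, 5.08 and 2.49 FPKM in heated CHIP-KO cells, against 5.76, 7.83 and 5.52 FPKM in heated WT cells, a difference of -0.66 ± 0.20 (adjusted p = 0.0213), and with the fragments of Gm10222 added it was -0.62 (adjusted p = 0.0241). The abundant mRNAs did not pass: mt-Co1 differed by -0.25 ± 0.23, mt-Cytb by -0.38 ± 0.32, mt-Nd1 by -0.40 ± 0.24 and mt-Nd6 by -0.40 ± 0.16 (adjusted p = 0.058 for mt-Nd6 and 0.206 to 0.423 for the other 3). The spread in this fit is shared by all 4 groups, and replicate 1 of unheated WT widens it. Without that library 8 of the 13 were called, all lower in CHIP-KO: mt-Cytb, mt-Nd1, mt-Nd2, mt-Nd5, mt-Nd6, mt-Nd4l, mt-Nd3 and mt-Atp8. With the 2 heated groups alone 7 were called, without replicate 2 of unheated WT 4, and without replicate 2 of heated WT 1. Of all genes, 2673 of 12963 were called lower without replicate 1 of unheated WT, and 2078 of 13023 with the 2 heated groups alone. Without replicate 2 of unheated WT 2412 of 12958 were called lower, and without replicate 2 of heated WT 2231 of 12840.

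Replicate 2 of heated WT was high for several genes of the copied stretch. mt-Atp6, a subunit of ATP synthase, had 40.9 FPKM there, 285% of the mean of the other 2 heated WT libraries, and mt-Co3 and mt-Co2, both subunits of complex IV, had 229% and 173%. Their copies were high in the same library, Gm10925 at 46.8 FPKM, against 22.0 and 23.2 in replicates 1 and 3, and Gm28437 at 32.5 FPKM, against 13.6 and 14.0. None of these 3 mRNAs was called in any of the 5 tests, and mt-Co2 was called with heat in WT cells (0.95, adjusted p = 0.0236) once the fragments of Gm28661 were added. In unheated CHIP-KO cells mt-Co2 had 35.5, 93.0 and 21.9 FPKM, the second library being high by itself, whereas Gm28661 had 30.2, 30.4 and 18.8 FPKM there.

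In unheated cells the rRNAs again had negative differences between CHIP-KO and WT, and 1 of the 2 was called, beside 24.5% of all genes called lower and 48.5% called in either direction. mt-Rnr2 averaged 157 ± 9.51 FPKM in unheated CHIP-KO cells and 249 ± 46.0 FPKM in unheated WT cells, a difference of -0.65 ± 0.15 (adjusted p = 0.00366) that was called under each of 25 other settings. mt-Rnr1 averaged 95.5 ± 13 FPKM in unheated CHIP-KO cells and 123 ± 24.1 FPKM in unheated WT cells, a difference of -0.35 ± 0.15 (adjusted p = 0.0765), and without replicate 1 of unheated WT this was -0.51 (adjusted p = 0.00841). Of the 13 mRNAs 1 was called, mt-Nd4l, with 4.04, 5.24 and 3.63 FPKM in unheated CHIP-KO cells, against 1.92, 2.93 and 2.38 FPKM in unheated WT cells, a difference of 0.64 ± 0.20 (adjusted p = 0.0218). With Gm10222 added it turned to -0.15 (adjusted p = 0.572), while mt-Nd3 with Gm28438 added came to be called lower in CHIP-KO (-0.45, adjusted p = 0.00755). mt-Nd4l was not called without replicate 2 of unheated CHIP-KO (0.51) or without replicate 1 of unheated WT (0.53). mt-Nd1 differed by -0.26 ± 0.24 (adjusted p = 0.397), and by -0.61 (adjusted p = 0.000809) without replicate 1 of unheated WT. Without replicate 3 of unheated WT, in contrast, 4 mRNAs were called higher in CHIP-KO, which were mt-Co1, mt-Cytb, mt-Nd4 and mt-Nd4l. Of 12958 genes, 2899 were called higher without that library.

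**Figure D5:**
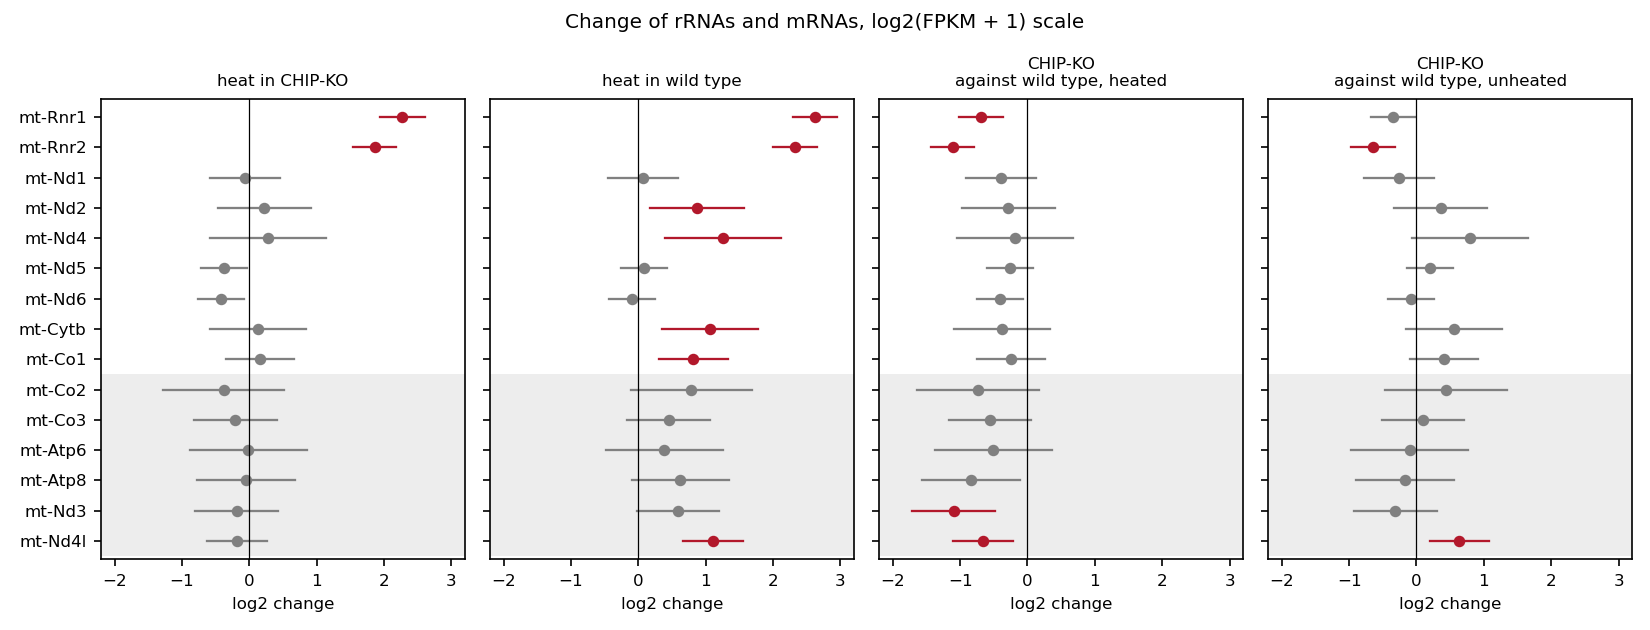
Differences on the log2(FPKM + 1) scale (horizontal) of the 2 rRNAs and 13 mRNAs in 4 comparisons, with 95% confidence intervals as lines (limma, all 12 libraries), red where the adjusted p is under 0.05. Grey shading marks the 6 mRNAs wholly inside the copied stretch: with heat both rRNAs lie at 1.86 to 2.62 in the 2 genotypes, and the mRNAs lie between -0.42 and 1.26.

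The interaction asks whether heat changed a gene by a different amount in CHIP-KO than in WT cells, which is the heat change in CHIP-KO minus that in WT. All 13 mRNAs had a negative value, with a median of -0.66 (without replicate 1 of unheated WT mt-Nd1 turned to 0.22, adjusted p = 0.251, and with Gm28438 added mt-Nd3 turned to 0.18, adjusted p = 0.441), and 1 of 13 was called, beside 17.3% of all genes called lower and 35.2% called in either direction. That gene was mt-Nd4l, whose heat changes were -0.18 ± 0.20 in CHIP-KO cells and 1.11 ± 0.20 in WT cells, an interaction of -1.29 ± 0.28 (adjusted p = 0.00479). With the fragments of its nuclear copy added it was -0.47 (adjusted p = 0.208), and then 0 of 13 were called. Both rRNAs had values below 0 that did not pass the test, -0.35 ± 0.21 for mt-Rnr1 (adjusted p = 0.228) and -0.46 ± 0.21 for mt-Rnr2 (adjusted p = 0.106). Their 95% intervals, which are not adjusted for the number of genes, were -0.81 to 0.12 and -0.92 to -0.01. mt-Rnr2 passed the test in 6 of 24 alternatives, among them an equal FPKM sum (-0.56, adjusted p = 0.0453), and mt-Rnr1 in 0 of 24. Without replicate 1 of unheated WT the values were -0.18 for mt-Rnr1 (adjusted p = 0.443) and -0.33 for mt-Rnr2 (adjusted p = 0.208). The 4 comparisons share groups, so their values are not independent of each other.

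The tRNAs were sparse. Of the 22, 15 passed the filter on low values (at least 1 FPKM in at least 3 of the 12 libraries) and were tested. mt-Tf, mt-Td, mt-Tk and mt-Tg had 0 fragments in all 12 libraries, which allows up to 1.59 to 2.93 FPKM by library and gene. mt-Tv, mt-Ts1 and mt-Tr had at most 4 fragments in a library. The highest levels were those of mt-Tp, a proline tRNA at the end of the gene order on the minus strand (15356 to 15422), at 86.2 to 276 FPKM, and mt-Tc, a cysteine tRNA, at 59.6 to 192 FPKM. All tRNA genes are shorter than a read, so most fragments counted there must reach into a neighbour, and a tRNA value cannot be told apart from the precursor or neighbouring RNA that carries it.

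With heat, 2 of the 15 were called higher in CHIP-KO cells, beside 8.65% of all genes, and 6 in WT cells, beside 28.1%, and 0 lower in either. Without replicate 1 of unheated WT the count was 5 in CHIP-KO cells (mt-Tc, mt-Tn, mt-Tl1, mt-Tw and mt-Ty). In WT cells it was 4 (mt-Tp, mt-Tc, mt-Tw and mt-Te). By voom on recovered fragments the counts were 4 and 6. Of 12963 genes, 1388 were called higher in CHIP-KO cells and 3468 in WT cells without that library. By voom 906 of 13023 were called higher in CHIP-KO cells and 3410 in WT cells. mt-Tc had 125, 151 and 145 FPKM in heated CHIP-KO cells, against 77.6, 62.3 and 70.5 FPKM in unheated CHIP-KO cells, a change of 0.99 ± 0.22 (adjusted p = 0.0087). In WT cells it had 192, 173 and 131 FPKM with heat, against 59.6, 83.6 and 119 FPKM without, a change of 0.95 ± 0.22 (adjusted p = 0.00291). It was the one tRNA called in both genotypes under each of 25 other settings. mt-Tw (tryptophan, change 1.64 ± 0.41) and mt-Te (glutamate, 2.02 ± 0.50) were called in WT cells under each of 25 other settings, while mt-Tp (0.83 ± 0.26) and mt-Tn (asparagine, 1.20 ± 0.44) lost the call in 5 and 8 of 25. mt-Ty (tyrosine) was called in both genotypes on few fragments, with 24, 23 and 25 in heated CHIP-KO libraries, against 6, 0 and 10 in unheated ones, and 22, 27 and 23 in heated WT libraries, against 1, 15 and 10 in unheated ones. It lost the call in 7 of 25 settings in CHIP-KO cells and in 17 of 25 in WT cells. mt-Tl1, the tRNA printed above, had 92.9, 76.3 and 52.5 FPKM in heated CHIP-KO cells, against 49.1, 41.0 and 52.3 FPKM in unheated ones, a difference of 0.60 (adjusted p = 0.24). So across the printed junction in CHIP-KO cells, the differences with heat were 1.86 for mt-Rnr2, 0.60 for mt-Tl1 and -0.06 for mt-Nd1, and only the first was called. There mt-Tl1 was called as well without replicate 1 of unheated WT, whose spread enters the fit (adjusted p = 0.0356). In WT cells the differences were 2.32, 0.27 and 0.07, and only the first was called. Without replicate 1 of unheated WT, mt-Nd1 in WT cells was -0.28 and was called lower with heat (adjusted p = 0.0386). mt-Tn, mt-Tc and mt-Ty stand next to each other on the minus strand, and mt-Te and mt-Tp are on that strand too. mt-Tw is on the plus strand, and mt-Ta and mt-Tq are on the minus strand and were called in no comparison. Since strand use in counting is not given, reads of these tRNAs and of RNA from the opposite strand cannot be told apart. Over all 12 libraries, the tested tRNAs called in none of the comparisons were mt-Tl1, mt-Tl2, mt-Th, mt-Ts2, mt-Ta, mt-Ti, mt-Tq and mt-Tt, with means over the 12 libraries of 1.93 (mt-Tt) to 61.2 FPKM (mt-Tl1).

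Between genotypes 2 of 15 tRNAs were called in heated cells, both lower in CHIP-KO, beside 19.1% of all genes called lower and 42.4% called in either direction. mt-Tp had 165, 149 and 124 FPKM in heated CHIP-KO cells, against 276, 247 and 229 FPKM in heated WT cells, a difference of -0.78 ± 0.26 (adjusted p = 0.0293) that lost the call in 5 of 25 settings. mt-Tm (methionine) had 0 fragments in each heated CHIP-KO library, against 3, 3 and 2 in heated WT libraries, and 1, 0 and 0 in unheated CHIP-KO libraries, against 1, 4 and 2 in unheated WT libraries. The fit called it lower in CHIP-KO in both comparisons, but these counts lie near the limit of 3 fragments that a count of 0 allows, and no fold is given. In unheated cells mt-Tm was the 1 tRNA called, beside 24.5% of all genes called lower. Without replicate 1 of unheated WT 6 were called, all lower in CHIP-KO (mt-Tp, mt-Tc, mt-Tn, mt-Tl1, mt-Tl2 and mt-Tm). By voom 2 were called (mt-Tl2 and mt-Tm). Of all genes, 2870 of 12963 were called lower without that library and 3520 of 13023 by voom. In the interaction 0 tRNAs were called (0 with an unadjusted p under 0.05, 0 by voom, and 4 with library weights). The count was 1 without replicate 1 of unheated WT, mt-Tl1 at 0.80 (adjusted p = 0.0426), and 2 without both WT replicates 1. Of all genes, 2220 of 12963 and 2616 of 12729 were called above 0 under these settings.

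The nuclear genes that serve this genome were counted from lists of known members. In WT cells heat lowered many of them, beside 30.5% of all genes called lower. Of 23 tested genes of mitochondrial DNA upkeep and transcription, 10 fell and 3 rose, among them Polrmt, with 11.3 ± 1.95 FPKM in heated WT cells and 18.6 ± 0.434 FPKM in unheated WT cells (change -0.68 ± 0.11, adjusted p = 0.000411), and the elongation factor Tefm (-0.59 ± 0.10). Of 22 genes of mitochondrial RNA processing and decay, 12 fell and 4 rose, with falls of 0.75 on the log2 scale for Rexo2, which degrades short RNAs, and of 0.66 for Elac2, which cuts the 3′ ends of tRNAs. Of 21 genes of rRNA and tRNA modification 11 fell and 1 rose, with Mrm3, a methyltransferase of the 16S rRNA, at 2.03 ± 0.481 FPKM in heated WT cells and 5.43 ± 0.569 FPKM in unheated WT cells (change -1.10 ± 0.15). Of 12 translation factors 7 fell and 0 rose, with Taco1, an activator of mt-Co1 translation, at -0.79 ± 0.07 and the elongation factor Gfm1 at -0.68 ± 0.06. Of 77 mitochondrial ribosomal protein genes, the protein partners of the 2 rRNAs, 51 fell and 2 rose, with Mrps34 at -1.07 ± 0.14. So in heated WT cells the rRNAs stood higher while most called genes of their protein partners stood lower. Of 80 nuclear-encoded respiratory chain subunits 26 fell and 9 rose, so the share that fell was near the 30.5% of all genes. Among those that fell was Cyc1, cytochrome c1 of complex III, with 62.7 ± 4.85 FPKM with heat and 110 ± 1.04 FPKM without. Without both WT replicates 1 the counts were 22 lower and 17 higher for these subunits. For ribosomal proteins they were then 39 lower and 2 higher. Of the 12729 genes tested without these libraries, 3830 were called lower and 3499 higher.

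In CHIP-KO cells the counts with heat stood beside 11.4% of all genes called lower and 8.65% called higher. They were 5 lower and 1 higher of 23 for upkeep and transcription, 2 and 3 of 22 for processing and decay, 2 and 2 of 21 for modification, 0 and 1 of 12 for translation factors, 1 and 4 of 77 for ribosomal proteins and 0 and 7 of 80 for respiratory chain subunits. Tefm fell by 0.58 ± 0.10 on the log2 scale, near its change in WT cells. Trmt10c, a part of the enzyme that cuts the 5′ ends of mitochondrial tRNAs, rose by 0.57 ± 0.16, and 1110008L16Rik, the gene of another part of that enzyme (Prorp in RefSeq), fell by 0.37 ± 0.07. Without both WT replicates 1 the respiratory chain count was 0 lower and 26 higher. It was 0 and 14 without replicate 1 of unheated WT alone, and 0 and 1 by voom. The ribosomal protein count was 6 lower and 5 higher without both WT replicates 1 (7 and 1 by voom). Of all genes, 2413 of 12729 were called lower and 1954 higher without both WT replicates 1. The counts were 1755 and 1388 of 12963 without replicate 1 of unheated WT alone, and 3007 and 906 of 13023 by voom. The direction of these list counts also depended on the scaling. With libraries scaled to an equal sum of FPKM, 63 of 77 ribosomal protein genes were called lower and 0 higher. Under that scaling the median of all genes stood at -0.29, and 8158 of 13023 genes were called lower and 567 higher. Of 6 tested biogenesis regulators, transcription factors and coactivators for nuclear genes of mitochondria, 3 were called lower and 1 higher with heat in each genotype. In WT cells this stood beside 30.5% of all genes called lower. Of these regulators Pprc1 and Nrf1 fell in both genotypes, Pprc1 by 0.48 ± 0.07 in CHIP-KO and 0.58 ± 0.07 in WT cells.

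Between unheated genotypes 24.5% of all genes were called lower and 23.9% higher in CHIP-KO. Of 77 ribosomal protein genes 50 were called lower and 3 higher, and of 80 respiratory chain subunits 50 were lower and 2 higher. Cyc1 had 57.6 ± 0.994 FPKM in unheated CHIP-KO cells and 110 ± 1.04 FPKM in unheated WT cells (-0.92 ± 0.06). Polrmt was lower as well (-0.54 ± 0.11), as was Tsfm, a translation elongation factor (-0.86 ± 0.08). With heat the counts were 9 lower and 11 higher of 77 and 13 lower and 8 higher of 80, beside 19.1% of all genes lower and 23.3% higher. Without both WT replicates 1 they were 17 lower and 12 higher, and 36 lower and 8 higher. With only replicate 1 of unheated WT left out they were 10 lower and 17 higher, and 20 lower and 10 higher. By voom they were 12 lower and 6 higher, and 21 lower and 6 higher. Of all genes, 2794 of 12729 were called lower and 3579 higher without both WT replicates 1. The all-gene counts were 2673 and 3363 of 12963 without replicate 1 of unheated WT, and 3166 and 2433 of 13023 by voom. Pnpt1, the RNA-degrading exonuclease of mitochondria, was higher in CHIP-KO at both temperatures, with 25.6 ± 0.308 FPKM in heated CHIP-KO cells and 15.1 ± 0.750 FPKM in heated WT cells, and with 25.5 ± 0.325 FPKM in unheated CHIP-KO cells and 16.5 ± 1.01 FPKM in unheated WT cells.

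In the interaction, of the ribosomal protein genes 33 of 77 were called above 0 and 1 below, and of the respiratory chain subunits 25 of 80 above and 2 below, beside 17.9% of all genes called above 0 and 17.3% below. Above 0 means that heat raised the gene more, or lowered it less, in CHIP-KO than in WT cells. The counts were 7 above and 0 below of 22 for processing and decay, 7 and 0 of 21 for modification, 5 and 0 of 12 for translation factors and 2 and 0 of 23 for upkeep and transcription, of which 0 were called with an equal FPKM sum, by voom or without replicate 1 of unheated WT. With both WT replicates 1 left out, the counts were 33 above and 1 below for ribosomal proteins. For respiratory chain subunits they were 24 above and 4 below. Of the 12729 genes tested without these libraries, 2616 were called above 0 and 2429 below. The medians over the tested members were 0.30 for ribosomal proteins and 0.26 for respiratory chain subunits, and -0.66 for the mitochondrial mRNAs, beside -0.0029 for all genes. Only 1 of the 13 mRNAs was called, and their median includes replicate 1 of unheated WT and was not computed without it. Without that library the heat changes of mt-Co1, mt-Cytb, mt-Nd2 and mt-Nd4 in WT cells were smaller, as given above.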

How the data were processed

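Poly(A) RNA of 12 MEF libraries was sequenced, with reads of 150 bases per the labels. The submitters' processing notes name HISAT2, and the authors deposited FPKM values per gene in 1 table. The counting tool, the aligner's version and the handling of multiply aligned reads are not given there or in the labels. Multiplying FPKM by gene length recovered whole fragments for 100% of values (tolerance 0.01), in all 15591924 to 26954112 fragments per library. Intervals and floors (3 fragments for a count of 0) cover counting error only, since PCR copies are not told apart.

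Log2(FPKM + 1) of the 13023 genes with at least 1 FPKM in at least 3 libraries was fitted with limma 3.58.1 (R 4.3.3), with group means over all 12 libraries and a variance trend. Tests were two-sided, with Benjamini-Hochberg adjustment over all tested genes, and the steps were tested on simulated data. A change on this scale understates that of low genes. The members and lists were chosen with earlier results of these data known. Every mitochondrial mRNA and rRNA and every tested tRNA is named, and from each list up to 3 genes per comparison with the largest change past the threshold and at least 2 FPKM in the higher group could be named, of which the text gives some. 1110008L16Rik was added for Prorp by its RefSeq synonym after the table was seen.

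GENCODE M21 transcripts were searched for copies with BLAST 2.17.0, so only annotated nuclear copies were found. Of 54532 identifiers 54495 were in that annotation. Alternatives covered the pseudocount, filter, scaling, library weights, replicate block, voom, pairs of groups alone and each library left out. Adding the fragments of nuclear copies was chosen after the data were seen. Figures used matplotlib 3.10.9.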

Additional observations from a re-analysis of the deposited data

Results flagged for a closer look

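Of the 13023 genes tested, 35.2% had a change with heat that differed between the genotypes by the interaction term (limma, Benjamini-Hochberg adjusted p under 0.05). From these, 7 were taken for this section, out of the mitochondrial genes and the nuclear lists alone. The one mitochondrial gene was mt-Nd4l, at -1.29 (adjusted p = 0.00479), a value that was -0.47 and past the threshold no longer with its nuclear copy added. The others are the gene of each nuclear list with the largest interaction. They were Mgme1, an exonuclease of mitochondrial DNA upkeep, at 0.36, Rexo2 at 0.93, Mrm3 at 0.86, Taco1 at 0.83, Mrps34 at 1.00 and Cycs, cytochrome c, at 0.93. Heated CHIP-KO cells had 5.90 ± 0.403 FPKM of Mgme1, against 4.40 ± 0.165 FPKM in unheated CHIP-KO cells, while heated WT cells had 5.46 ± 0.908 FPKM, against 5.46 ± 0.301 FPKM in unheated WT cells. The call of Mgme1 was lost in 15 of 24 alternatives (0.26 to 0.48, adjusted p up to 0.174), and those of the other 5 in 0. For the other 5, the mean was lower with heat in WT cells. With 3 libraries per group, no group was large enough to look for single outlying samples by a fixed rule.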

How the results depend on the processing

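The changes of both rRNAs with heat in each genotype, and their differences in heated cells, kept their direction and call under every alternative run. The counts of mRNAs did not. With heat in CHIP-KO cells, 0 mRNAs became 2 (mt-Nd5 and mt-Nd6) with an equal FPKM sum (with or without the mitochondrial genes), quantiles, the compared groups alone, library weights or voom, and 3 without both WT replicates 1. With heat in WT cells, 5 became 2 with no filter or the compared groups alone, and 3 with either equal sum or quantiles. Between unheated genotypes, 1 became 0 with no filter, a mean of at least 5 FPKM or voom, and 2 with weights. Between heated genotypes, 2 became 1 with no filter, a mean of at least 5 FPKM or nuclear copies added, 4 with quantiles, 7 with the compared groups alone, and 6 with weights or without both WT replicates 1. In the interaction, 1 became 0 with a mean of at least 5 FPKM (which leaves out mt-Nd4l) or copies added, 3 with weights and 2 without both WT replicates 1. The rRNAs called between unheated genotypes became 2 with weights or without both WT replicates 1, and in the interaction 1 (mt-Rnr2) with either equal sum, weights or without both WT replicates 1. The number of all genes called moved with the settings too. With heat in CHIP-KO, 1481 of 13023 genes were called lower with the settings used above, 1813 with quantiles, 3007 by voom and 3275 with weights. Between heated genotypes, 2492 were called lower with the settings used above, 2078 with the compared groups alone and 3976 with weights. Causes were not tested beyond these settings.

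Leaving out 1 library at a time gave 0 to 1, 4 to 6, 0 to 4, 1 to 8 and 1 to 3 mRNAs in the 5 comparisons (heat in CHIP-KO, heat in WT, genotypes unheated, genotypes heated, interaction), and 2 to 2, 2 to 2, 1 to 2, 2 to 2 and 0 to 1 rRNAs. The lowest or highest counts came without replicate 1 of unheated WT (1 in the first and 8 in the fourth), replicate 3 of unheated WT (4 in the third and 3 in the interaction), replicate 2 of unheated CHIP-KO (0 in the third) and replicate 2 of heated WT (1 in the fourth). In the interaction, 2 were called without replicate 3 of unheated CHIP-KO or replicate 1 of heated WT. The mRNA share of the library moved to 0.963% to 1.04% in heated CHIP-KO, 0.951% to 1.07% in unheated CHIP-KO, 1.24% to 1.31% in heated WT and 0.747% to 1.07% in unheated WT.

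For mitochondrial genes, 3 alternative values turned sign with a call before or after the change. A further 144 of 3018 alternative values of changes not called turned sign and stayed uncalled. Among these were the interactions of mt-Nd1 and mt-Nd3 given above. mt-Nd1 with heat in WT was -0.28 without replicate 1 of unheated WT (up to 0.28 with another library left out), mt-Nd3 with heat in WT was -0.34 (adjusted p = 0.0278) and mt-Nd4l between unheated genotypes -0.15 with copies added. With the equal sum, the heat changes in CHIP-KO of Mrps6, Mrpl9, Ndufb6 and Atp5e, called higher otherwise, were -0.048, -0.013, -0.056 and -0.058, and -0.051, -0.016, -0.060 and -0.061 when mitochondrial genes were left out of the sum. That scaling moved the median of all genes with heat to -0.29 in CHIP-KO and -0.21 in WT, and called 567 genes higher and 8158 lower in CHIP-KO (1126 and 1481 otherwise) and 2387 and 6168 in WT (3664 and 3976 otherwise).

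Of 667 alternative values of the 27 called changes of mitochondrial genes, 71 lost the call with the same sign. Of 3018 alternative values of the changes not called, 151 came to be called with the same sign. Same-numbered replicates did not vary together in every pair (correlation of deviations -0.12 to 0.33). Between heated CHIP-KO and heated WT the correlations were 0.33, 0.021 and 0.23 for replicates 1, 2 and 3. Differently numbered libraries of these groups gave -0.32 to 0.13. Whether libraries with the same number share a batch cannot be told from the labels. With the replicate number as a block, 3 mRNAs were called between heated genotypes (mt-Nd6 at -0.40 in addition), against 2 without it, and 5, 0, 1 and 1 with heat in WT, with heat in CHIP-KO, between unheated genotypes and in the interaction, as without it. Few fragments limit mt-Atp8 (1 to 13 per library), mt-Nd4l (9 to 42) and most tRNAs.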
